A study of Mus musculus with 4 samples.

Results

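The SOCS family of cytokine signalling inhibitors was followed in mouse macrophages that carried or lacked the transcription factor Batf2. Its 8 genes, Socs1 to Socs7 and Cish, were chosen by name, and all 8 of them were found among the 24092 genes of the deposited tables. The family was measured in 4 RNA-seq libraries, 1 for each group, so that no group has replicates. Marrow of C57BL/6 mice was cultured for 6 days with GM-CSF at 10 ng/ml, a macrophage growth factor, and the adherent cells were used. The labels give every group a 4 h exposure to 10 ng/ml interferon-gamma, followed by 100 ng/ml LPS, the endotoxin of bacterial walls. The 4 groups are Batf2-/- cells (KO) after 3 h of LPS, Batf2+/+ cells (WT) after the same 3 h, and then KO and WT cells taken at 0 h. The part of Batf2 that the knockout lacks, and whether cells of several mice were pooled, is not given in the sources used here.

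SOCS proteins close a feedback loop of the JAK-STAT pathway. A cytokine receptor activates Janus kinases, these phosphorylate STAT factors, and the STAT factors switch on SOCS genes among their targets. Each SOCS protein has an SH2 domain, which binds phosphorylated tyrosines on receptors or kinases, and a SOCS box, which recruits elongins and a cullin so that bound partners can be ubiquitinated. SOCS1 and SOCS3 also carry a short region that blocks the kinase itself. In macrophages SOCS1 is known as a brake on interferon-gamma and LPS responses, SOCS3 as a brake on interleukin-6 signalling through gp130, and CIS, the product of Cish, as an inhibitor induced by STAT5 downstream of GM-CSF and related cytokines.

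Promoter sequence was available in the RefSeq promoter table (build GRCm38.p6) for 4 of the 8 genes, namely Socs1, Socs3, Socs4 and Cish. The 3 stretches below belong to the members with the highest levels at 3 h, and they are shown because these genes are the family's classical STAT targets. They run 5′ to 3′ on the gene's own strand and end just before the start of the measured transcript. Capitals mark matches to the GAS element TTCNNNGAA, the site of STAT dimers, or to the repeat of GAAA after 2 free bases within the interferon-stimulated response element (ISRE).
Socs1, chr16:10785537-10785636, reverse strand: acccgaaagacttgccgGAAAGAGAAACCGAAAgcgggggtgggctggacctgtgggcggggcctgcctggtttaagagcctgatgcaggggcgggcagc
Socs3, chr11:117969367-117969556, reverse strand: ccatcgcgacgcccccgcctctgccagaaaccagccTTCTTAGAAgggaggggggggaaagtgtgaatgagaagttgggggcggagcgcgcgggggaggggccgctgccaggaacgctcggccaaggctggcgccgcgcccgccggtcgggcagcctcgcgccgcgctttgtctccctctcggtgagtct
Cish, chr9:107296559-107296687, forward strand: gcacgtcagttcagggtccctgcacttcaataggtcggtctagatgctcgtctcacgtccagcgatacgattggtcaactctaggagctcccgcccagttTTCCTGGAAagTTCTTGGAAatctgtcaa

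The windows searched run from 250 bases before to 50 bases after the start given in that table, on both strands. Cish held 2 GAS matches, which end 22 and 11 bases before the start of the measured transcript. Socs3 held 1 GAS match, which ends 146 bases before its transcript. Socs1 held no GAS match but 2 overlapping matches to the ISRE repeat, which end 74 and 68 bases before its transcript. Socs4 held neither motif. Of 32851 promoter windows in the table, 8.30% held a GAS match and 3.44% a match to the ISRE repeat. The AP-1 and BATF site TGANTCA was in none of the 4 windows and in 7.81% of all windows, and the NF-kappaB motif was in none of the 4 and in 8.46% of all. A match of letters does not show that a factor binds there, and a missing match says only that these letters are not in these windows.

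Estimated depth, in units of 1000000 mapped reads, was 30.7 in KO and 20.3 in WT at 3 h, and 28.0 in KO and 24.8 in WT at 0 h. Values are FPKM, a read density scaled to transcript length and to the library's reads, so that levels of different genes can be compared. The intervals come from the deposited 95% limits, shifted so that they surround the FPKM at an unchanged relative width. They cover counting and read assignment error within 1 library and not the spread between cultures, so no p-value is given. Batf2 itself had 10.1 FPKM in KO and 234.3 in WT at 3 h, and 0.26 in KO and 2.63 in WT at 0 h. All 10 macrophage markers had an FPKM of at least 1 in every library, with Csf1r, the receptor of M-CSF, at 153.0 FPKM in KO and 147.1 in WT at 3 h, and 186.9 in KO and 183.8 in WT at 0 h. Cd14 passed the size rule given next as higher in KO at 3 h, with 624.6 FPKM in KO and 294.4 in WT. It also passed for the difference between the LPS responses (1.20). Of the 10 markers, KO was above WT for 7 and below for 3 at 3 h, and above for 6 and below for 4 at 0 h. Summed markers lay between 0.44 and 1.02 FPKM for B cells, between 0.078 and 0.27 for natural killer cells and between 3.28 and 5.06 for T cells, most of it Cd4 and Lck, with each of the Cd3 genes at 0.42 or less. Neutrophil markers were present in all libraries, with a sum of 4995 FPKM (KO) and 5251 (WT) at 3 h, and of 8624 (KO) and 3483 (WT) at 0 h. Of 8 tested at 0 h, 5 passed as higher in KO, where 1.32% of all genes did, and of 7 tested at 3 h 0 passed. For the difference between the LPS responses 7 of 8 neutrophil markers passed as lower in KO, where 1.49% of all genes did. Stromal markers summed to 52.9 FPKM (KO) and 33.7 (WT) at 3 h, and to 74.5 (KO) and 33.2 (WT) at 0 h. Of these, 2 of 5 tested passed as higher in KO at 0 h, against the same 1.32% of all genes, and 0 of 4 at 3 h. Dendritic cell markers summed to 550.2 FPKM (KO) and 504.4 (WT) at 3 h, and to 595.8 (KO) and 623.6 (WT) at 0 h. Most of each sum was Itgax, with 497.7 FPKM (KO) and 456.8 (WT) at 3 h, and 556.2 (KO) and 563.7 (WT) at 0 h. At 0 h 5 of 6 tested dendritic cell markers were lower in KO and 1 was higher, with a median difference of -0.53. At 3 h 4 of 7 were lower and 3 higher. Clec9a passed as lower in KO at 3 h (2.16 FPKM in KO, 9.68 in WT) and Cd209a as lower in KO at 0 h (2.13 in KO, 6.46 in WT). Mast cell and basophil markers summed to 23.3 FPKM (KO) and 15.2 (WT) at 3 h, and to 11.51 (KO) and 5.83 (WT) at 0 h, with Gata2 higher in KO at 3 h and Hdc at 0 h by the size rule given next. The part of these other cells in the results below was not tested.

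The size rule asks for a difference of 1 or more in log2(FPKM + 1) and for an FPKM of 1 or more on either side. It also asks for deposited intervals that do not overlap. A difference of 1 is 2-fold in FPKM + 1, which is more than 2-fold in FPKM, above all at low levels. Differences below are on this log2(FPKM + 1) scale, and folds are ratios of FPKM. After LPS the family parted in both genotypes. Socs1 and Socs3 passed as higher, Socs2 and Socs6 passed as lower, and Cish, Socs4 and Socs5 stayed below the rule, while Socs7 passed as higher in KO with a difference of 1.05 and stayed below the rule in WT with 0.56. In KO cells 3 of the 8 members were thus higher after 3 h and 2 were lower, where the rule called 7.84% of 10958 genes higher and 28.0% lower. In WT cells 2 members were higher and 2 lower, where it called 7.54% of 10837 genes higher and 23.2% lower. The median difference of the 8 members was -0.28 in KO and -0.53 in WT, and that of all genes tested was -0.64 in KO and -0.54 in WT. Lower calls are therefore to be read against a general shift. With the libraries rescaled to a median ratio of 1, the rule called 1402 of 10794 genes higher and 1099 lower in KO. In WT it called 1270 of 10732 genes higher and 1051 lower. Counts given below with the rescaling are to be read against these. Higher calls thus made up 56.1% of all calls in KO and 54.7% in WT. As deposited they made up 21.9% of the calls in KO (859 higher, 3063 lower) and 24.5% in WT (817 higher, 2511 lower). In bulk cultures fewer cells of a type and less RNA per cell cannot be told apart.

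**Figure D1:**
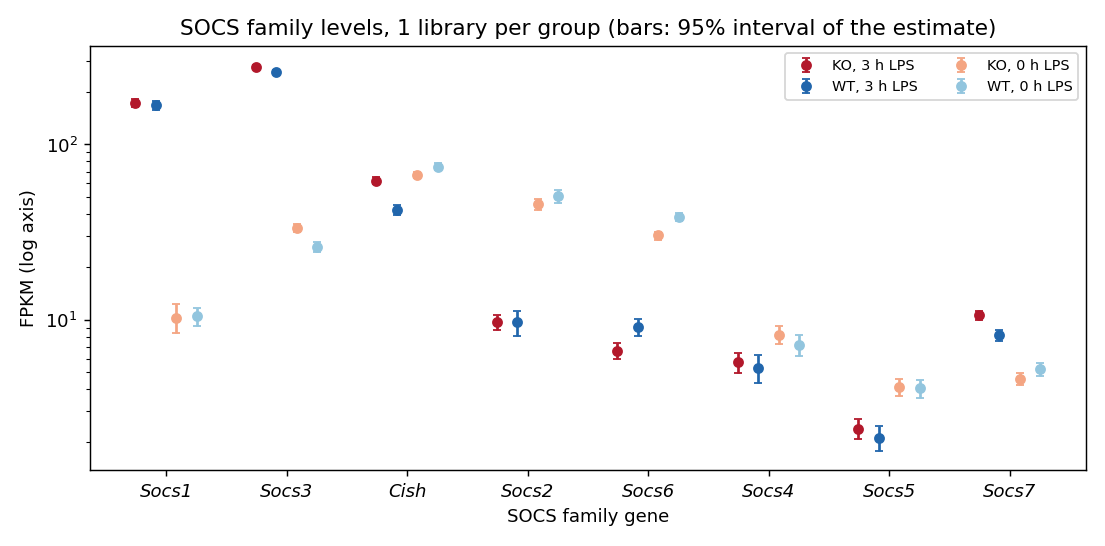
FPKM of the 8 SOCS family genes (log axis) in the 4 libraries, 1 point per library with its 95% interval. Socs1 and Socs3 lie at 167.6 or more at 3 h and at 33.5 or less at 0 h, while Socs2 and Socs6 lie at 9.74 or less at 3 h and at 30.3 or more at 0 h.

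Socs1 encodes the inhibitor that binds Janus kinases directly and limits interferon signalling. The measured transcripts lie on chromosome 16 at 10783809 to 10785536 (GRCm38, reverse strand), and the annotated principal transcript has 2 exons. At 3 h Socs1 had 173.3 FPKM in KO (interval 164.6 to 181.9) and 167.6 in WT (157.2 to 178.0). Before LPS, at 0 h, Socs1 had 10.3 FPKM in KO (8.36 to 12.2) and 10.5 in WT (9.18 to 11.7). Both libraries at 3 h were thus far above both at 0 h, and at each time the intervals of the genotypes overlapped. The level at 3 h was 16.8-fold that at 0 h in KO (13.8 to 20.4) and 16.0-fold in WT (13.97 to 18.4). These were the 109th highest difference of 10958 genes in KO and the 113th of 10837 in WT.

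Socs3 encodes the inhibitor that docks on gp130 and on the receptors for G-CSF and leptin. It lies on chromosome 11 at 117966087 to 117969366 (GRCm38, reverse strand) with 2 exons. At 3 h Socs3 had 278.3 FPKM in KO (273.4 to 283.2) and 260.5 in WT (254.5 to 266.5), the highest level of the family in both libraries. At 0 h it had 33.5 FPKM in KO (31.7 to 35.3) and 26.0 in WT (24.4 to 27.6). The intervals of KO and WT did not overlap at either time, with KO above WT. The level at 3 h was 8.31-fold that at 0 h in KO (7.86 to 8.79) and 10.0-fold in WT (9.39 to 10.7). The difference between the LPS responses, KO less WT, was -0.26 (interval -0.38 to -0.14), well below the size rule. Summed neutrophil markers were also higher in KO than in WT at 0 h, by the values given above, and their part in this difference was not tested.

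Cish encodes CIS, which competes for STAT5 docking sites and binds several cytokine receptors. It lies on chromosome 9 at 107296689 to 107301961 (GRCm38, forward strand) with 3 exons. In the annotation 2 genes on the opposite strand overlap it. The libraries were strand-specific, but whether the estimates used the strand is not given in the sources used here. At 3 h Cish had 62.2 FPKM in KO (59.6 to 64.8) and 42.5 in WT (39.8 to 45.1). At 0 h it had 66.9 FPKM in KO (64.1 to 69.7) and 74.8 in WT (71.6 to 77.9). The WT library at 3 h was thus the lowest of the 4 and the WT library at 0 h the highest. With the rescaling Cish stood at 78.5 in KO and 50.5 in WT at 3 h, and at 54.0 in KO and 61.1 in WT at 0 h. On that scale KO at 3 h was the highest, and WT at 3 h stayed the lowest but near KO at 0 h. KO was 1.47-fold above WT at 3 h (1.36 to 1.58), the 291st highest of 9802 genes, and WT was 1.12-fold above KO at 0 h. In KO the 3 h level was 0.93 of the 0 h level with intervals that overlapped as deposited, a difference of -0.10 that turned to 0.53 with the rescaling. In WT it was 0.57 of the 0 h level, a difference of -0.80 that stayed negative at -0.27 with the rescaling. The difference between the LPS responses was 0.70 (0.56 to 0.83), which did not reach the size rule.

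Socs2 encodes an inhibitor known for restraining growth hormone receptor signalling. Its measured transcripts lie on chromosome 10 at 95411490 to 95416857 (GRCm38, reverse strand). At 3 h Socs2 had 9.74 FPKM in KO (8.79 to 10.7) and 9.70 in WT (8.11 to 11.3). The 0 h libraries held 45.7 FPKM in KO (42.4 to 49.1) and 50.9 in WT (46.6 to 55.3). Both libraries at 3 h were below both at 0 h, and the genotypes overlapped at each time. The level at 3 h was 4.70-fold lower than at 0 h in KO and 5.25-fold lower in WT. The difference of -2.12 in KO was the 304th lowest of 10958 genes, and that of -2.28 in WT the 193rd lowest of 10837.

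Socs6 encodes an inhibitor that binds the receptor tyrosine kinase KIT and insulin receptor substrates. It lies on chromosome 18 at 88867880 to 88894207 (GRCm38, reverse strand). At 3 h Socs6 had 6.67 FPKM in KO (5.99 to 7.35) and 9.06 in WT (8.07 to 10.1). At 0 h it had 30.3 FPKM in KO (28.7 to 31.8) and 38.7 in WT (36.7 to 40.7). Both libraries at 3 h were below both at 0 h, and KO was below WT at both times without overlap of the intervals. The level at 3 h was 4.54-fold lower than at 0 h in KO and 4.27-fold lower in WT. KO was lower than WT by 0.39 at 3 h (KO minus WT, -0.39, interval -0.58 to -0.20) and by 0.35 at 0 h (-0.35, -0.45 to -0.24), both below the size rule.

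Socs7 encodes a member known for binding the adaptor NCK and for moving between nucleus and cytoplasm. It lies on chromosome 11 at 97362551 to 97398542 (GRCm38, forward strand) with 10 exons. At 3 h Socs7 had 10.6 FPKM in KO (10.0 to 11.2) and 8.17 in WT (7.58 to 8.76). At 0 h it had 4.60 FPKM in KO (4.23 to 4.96) and 5.22 in WT (4.80 to 5.64). Both libraries at 3 h were above both at 0 h, and KO was above WT without overlap at 3 h. The difference of 1.05 in KO (0.93 to 1.17) lay close to the limit of 1, and that of 0.56 in WT (0.43 to 0.69) lay below it. The call in KO ended with a pseudocount of 5, which gave 0.70, and with the rescaling Socs7 passed in both, at 1.61 in KO and 1.03 in WT. The difference between the LPS responses was 0.49 (0.31 to 0.67), below the size rule.

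Socs4 and Socs5 encode the closely related members known for acting on the EGF receptor. Socs4 lies on chromosome 14 at 47277143 to 47291591 and Socs5 on chromosome 17 at 87107679 to 87137588 (GRCm38, both forward strand). Socs4 had 5.72 FPKM in KO and 5.33 in WT at 3 h, and 8.22 in KO and 7.21 in WT at 0 h. Socs5 had 2.40 FPKM in KO and 2.12 in WT at 3 h, and 4.12 in KO and 4.05 in WT at 0 h, the lowest level of the family in every library. For both genes the libraries at 3 h lay below those at 0 h, and KO and WT overlapped at each time. The LPS difference of Socs4 was -0.46 in KO and -0.37 in WT, and it turned to 0.11 in KO and 0.09 in WT with the rescaling. That of Socs5 was -0.59 in KO and -0.69 in WT, and it stayed negative with the rescaling, at -0.11 in KO and -0.29 in WT.

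**Figure D2:**
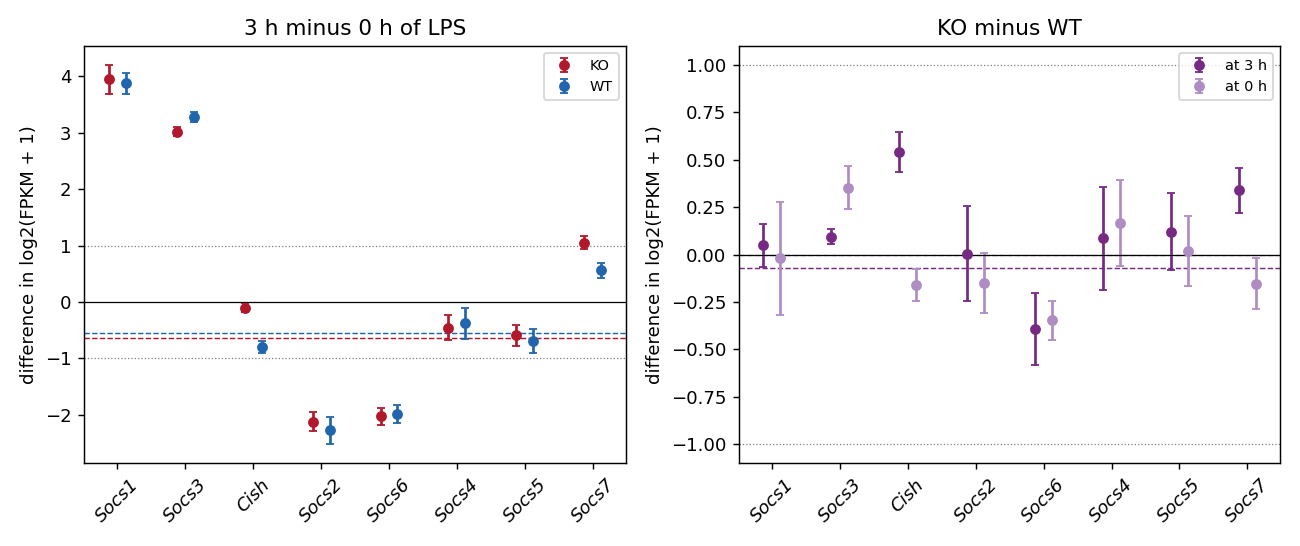
Differences in log2(FPKM + 1) of each SOCS family gene, 3 h minus 0 h of LPS in KO and WT (left) and KO minus WT at 3 h and at 0 h (right), with 95% intervals propagated from the deposited ones. Dotted lines mark the size rule and dashed lines the median of all genes; Socs1 and Socs3 lie above 3 on the left in both genotypes, and no gene reaches the limit on the right, where Cish at 0.54 is the highest.

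The comparison of the genotypes asks how the absence of Batf2 bears on the family. At 3 h none of the 8 members passed the size rule in KO against WT, where it called 0.724% of 9802 genes higher and 0.704% lower. At 0 h none passed either, where it called 1.32% of 10841 genes higher and 0.378% lower. A count of 0 of 8 is close to these shares and says little about the members. The members lay between -0.39 (Socs6) and 0.54 (Cish) at 3 h, with a median of 0.09, against -0.07 for all genes. At 0 h they lay between -0.35 (Socs6) and 0.35 (Socs3), with a median of -0.09, against -0.00 for all genes. Deposited intervals did not overlap at 3 h for Socs3, Socs7 and Cish, higher in KO, and for Socs6, lower in KO. At 0 h they did not overlap for Socs3, higher in KO, and for Socs6 and Cish, lower in KO. How many of all genes had intervals apart was not counted. The intervals also leave out the spread between cultures, so their separation says little about the family. For the difference between the LPS responses, 0 of 8 members passed, where the rule called 0.944% of 11121 genes higher in KO and 1.49% lower. The propagated interval left out 0 for Cish, Socs7 and Socs3, and for how many of all genes it did so was not counted. The order of those differences ran from 0.70 (Cish) to -0.26 (Socs3).

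**Figure D3:**
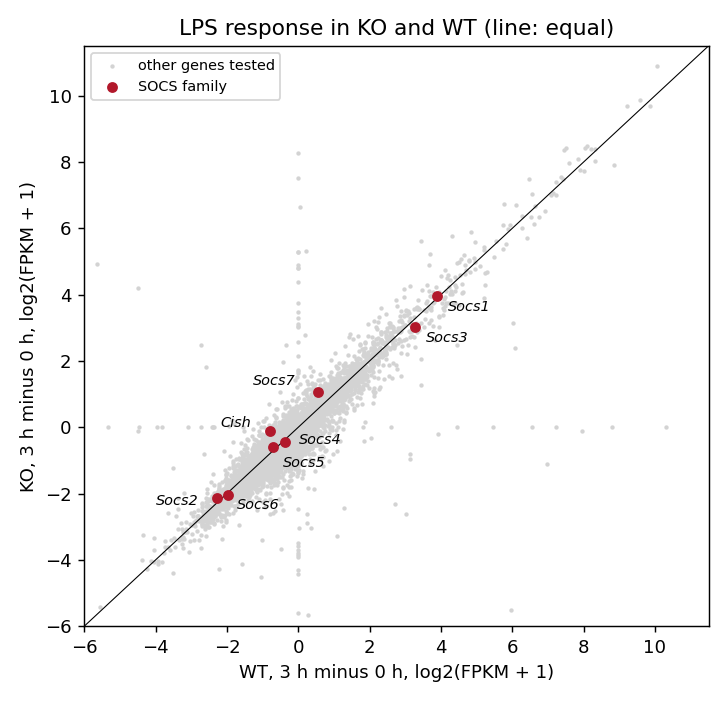
LPS response (3 h minus 0 h, log2(FPKM + 1)) in KO on the vertical axis against WT on the horizontal axis for 11121 genes in grey and the 8 SOCS family genes in red, with the line of equal response. The family spans differences from about -2 (Socs2 and Socs6) to 3.9 (Socs1), and Cish (-0.10 in KO, -0.80 in WT) and Socs7 (1.05 in KO, 0.56 in WT) lie above the line.

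The order of the levels within the family was not the same at the 2 times. At 3 h it was led by Socs3, Socs1 and Cish in both genotypes, in this order and with intervals apart. In KO at 3 h Socs7 and Socs2 overlapped as the next in order, as did Socs6 and Socs4. In WT at 3 h Socs2, Socs6 and Socs7 formed the middle, with neighbours that overlapped. At 0 h the order began with Cish and Socs2 in both genotypes, followed by Socs3 and Socs6, which overlapped in KO, and by Socs6 above Socs3 without overlap in WT. The summed FPKM of the 8 genes was 548.9 (KO) and 504.9 (WT) at 3 h, and 203.6 (KO) and 217.3 (WT) at 0 h. Socs1 and Socs3 together made up 82.3% (KO) and 84.8% (WT) of this sum at 3 h, and 21.5% (KO) and 16.8% (WT) at 0 h. Cish, Socs2 and Socs6 together made up 14.3% (KO) and 12.1% (WT) at 3 h, and 70.2% (KO) and 75.6% (WT) at 0 h. These shares do not depend on how the libraries are scaled to each other. Among all genes of the same library at 1 FPKM or more, Socs3 stood at the 97.2 (KO) and 97.0 (WT) percentile at 3 h and at the 79.9 (KO) and 74.6 (WT) percentile at 0 h.

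**Figure D4:**
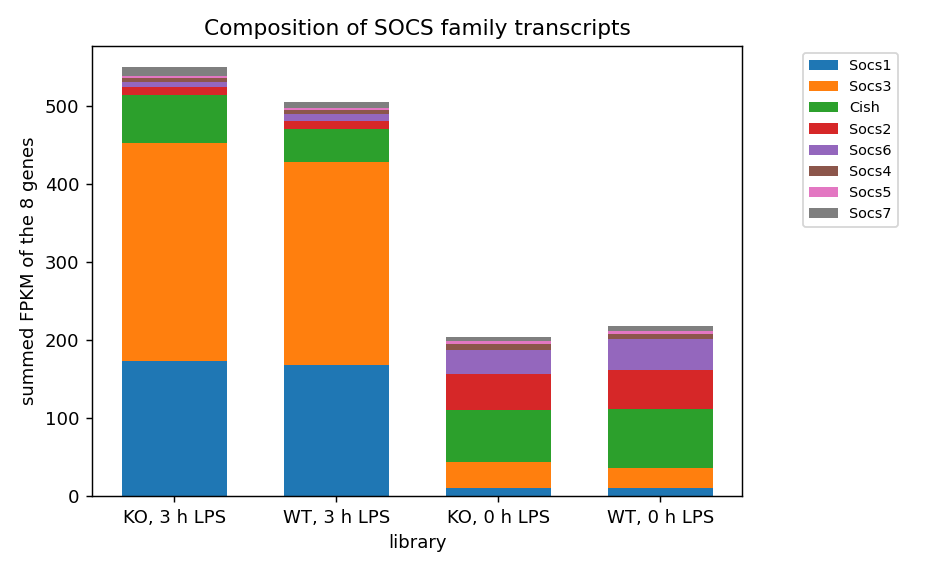
Summed FPKM of the 8 SOCS family genes in each library, stacked by gene. Socs1 and Socs3 make up 82.3% (KO) and 84.8% (WT) of the sum at 3 h, and 21.5% (KO) and 16.8% (WT) at 0 h.

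Of 23 listed ligands that signal through JAK-STAT, 12 were tested for the LPS response in KO and 11 in WT. Among these, 11 of 12 passed as higher at 3 h in KO, where 7.84% of all genes did, and 10 of 11 in WT, where 7.54% did. A ligand near 0 at 0 h was tested only if it reached 1 FPKM at 3 h. These counts are thus set in part by the filter and say little about the ligands as a group. Il6, the main ligand of gp130 in macrophages, had 1052 FPKM in KO and 826.5 in WT at 3 h, and 0.27 in KO and 0.39 in WT at 0 h. Ifnb1, interferon-beta, had 20.6 FPKM in KO and 19.5 in WT at 3 h, and was listed at 0 in KO and at 0.068 in WT at 0 h. Between the genotypes at 3 h, 3 of 12 ligands passed as higher in KO, where 0.724% of all genes did. Il23a, the p19 chain of interleukin-23, had the largest difference of them, with 49.8 FPKM in KO and 10.6 in WT. Lif and Csf3 signal through receptors that SOCS3 restrains, and had 13.97 FPKM in KO against 4.81 in WT for Lif and 6.11 in KO against 2.01 in WT for Csf3. Ifng itself was listed at 0 in 3 libraries and at 0.046 FPKM in WT at 3 h. Csf2, GM-CSF, was at or below 0.52 FPKM in all 4.

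Of the receptors that SOCS proteins restrain, 3 of 27 passed as higher and 5 as lower at 3 h in KO, and 4 of 25 as higher and 5 as lower in WT. The rule called 7.84% of all genes as higher and 28.0% as lower in KO, and 7.54% as higher and 23.2% as lower in WT, so that these counts say little about receptors as a group. With the rescaling they became 7 higher and 3 lower in KO and 8 higher and 1 lower in WT. These are to be read against the rescaled counts over all genes given above. Il6ra, which binds interleukin-6, reached 1.14 FPKM in KO and 1.35 in WT at 3 h, and 12.4 in KO and 14.1 in WT at 0 h. Il6st, which encodes gp130, had 6.997 FPKM in KO and 7.04 in WT at 3 h, and 26.0 in KO and 20.4 in WT at 0 h. Both receptor chains of interleukin-6 passed as lower at 3 h in each genotype as deposited, while Il6 and Socs3 passed as higher. With the rescaling Il6ra stayed lower in both, at -2.17 in KO and -2.26 in WT, and Il6st stayed lower in KO at -1.16 but not in WT, where it had -0.92. Ifngr1, the chain that binds interferon-gamma, was at 12.95 FPKM in KO and 18.7 in WT at 3 h, and 34.3 in KO and 51.3 in WT at 0 h, and passed as lower in both as deposited. That call ended in both with the rescaling, which gave -0.73 in KO and -0.88 in WT. Il10ra and Il12rb2 passed as higher in both, with differences of 1.62 and 1.72 in KO and of 1.84 and 1.71 in WT. The GM-CSF receptor chain Csf2rb was high throughout and did not pass, with 345.8 FPKM in KO and 295.2 in WT at 3 h, and 426.8 in KO and 436.0 in WT at 0 h. Between the genotypes at 3 h, 1 of 25 receptors tested passed as higher in KO, where 0.724% of all genes did. It was Il7r, the interleukin-7 receptor, with 79.8 FPKM in KO and 38.7 in WT at 3 h. At 0 h Il7r had 94.2 FPKM in KO and 74.2 in WT. A count of 1 says little about the receptors as a group.

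Of the 4 Janus kinases, 1, Jak2, passed as higher at 3 h in both genotypes, where 7.84% of all genes did in KO and 7.54% in WT. Jak2 had 214.8 FPKM in KO and 178.1 in WT at 3 h, and 37.9 in KO and 53.1 in WT at 0 h. Jak3 passed in both with the rescaling alone, at 1.30 in KO and 1.09 in WT. Of the 7 STAT factors, 4 passed as higher in each genotype, against the same shares over all genes. With the rescaling 6 passed as higher in KO and 4 in WT, against the rescaled counts over all genes given above. Stat3, which acts below gp130, passed as higher in both, with differences of 1.60 in KO and 1.57 in WT. Stat5a, which GM-CSF activates, stood at 46.2 FPKM in KO and 31.1 in WT at 3 h, and 12.6 in KO and 14.2 in WT at 0 h. It passed in both, with differences of 1.80 in KO and 1.08 in WT. Stat2 passed in both, with differences of 2.86 in KO and 2.32 in WT.

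Among the 12 STAT5 targets, which include Cish and Socs2, 4 passed as higher and 4 as lower in KO, and 3 as higher and 4 as lower in WT. The background shares of higher and lower calls were 7.84% and 28.0% in KO and 7.54% and 23.2% in WT. With the rescaling the counts were 4 higher and 4 lower in KO, and 4 higher and 2 lower in WT. They are to be read against the rescaled counts over all genes given above. Pim1, a survival kinase, had 325.8 FPKM in KO and 297.7 in WT at 3 h, and 141.7 in KO and 140.4 in WT at 0 h, and so went the opposite way to Socs2. The list's median difference was -0.04 in KO and -0.43 in WT, and both turned positive with the rescaling, at 0.55 and 0.06. Among the 12 STAT3 targets, which include Socs3, 4 passed as higher and 2 as lower in KO, and 4 as higher and 1 as lower in WT, against the same shares over all genes. With the rescaling 5 were higher and 2 lower in KO, and 6 higher and 1 lower in WT. This list too is to be read against the rescaled counts over all genes. Junb, an AP-1 subunit, had differences of 1.83 in KO and 1.71 in WT, against 3.02 in KO and 3.28 in WT for Socs3. Fos, another AP-1 subunit, was the member of that list that passed between the genotypes at 3 h, where 0.704% of all genes were lower, with 2.50 FPKM in KO and 6.27 in WT. Among the 16 interferon-gamma targets, which include Socs1, 15 passed as higher in KO and 14 in WT, against the 7.84% and 7.54% of all genes, with medians of 4.60 in KO and 4.34 in WT. At 0 h this list was low for cells labelled as treated with interferon-gamma, with Cxcl9 at 0.12 FPKM in KO and 0.62 in WT and Irf1 at 12.6 in KO and 12.4 in WT. At 3 h Irf1 had 370.3 FPKM in KO and 419.3 in WT. Effects of interferon-gamma, of LPS and of time on Socs1 and the other members therefore cannot be told apart.

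Of 8 measured partners of the SOCS-box ubiquitin ligase, none passed in KO and 1, Ube2f, passed as higher in WT, with 65.7 FPKM in KO and 65.8 in WT at 3 h, and 35.2 in KO and 31.8 in WT at 0 h. With the rescaling 2 partners, Ube2f and Cul2, passed as higher in both genotypes, against the rescaled counts over all genes given above. Cul5, the cullin that SOCS boxes recruit, had 5.08 FPKM in KO and 5.25 in WT at 3 h, and 6.38 in KO and 5.86 in WT at 0 h. The elongin gene Elob was listed at 0 in all 4 libraries, which may be a failed estimate, and Eloc had between 30.1 and 35.5 FPKM. Of 15 other SOCS-box proteins, 1 passed as higher and 3 as lower in KO, and 2 as higher and 3 as lower in WT. These counts, and that of the partners, are to be read against 7.84% of all genes higher and 28.0% lower in KO, and 7.54% higher and 23.2% lower in WT, and they say little about these groups. Spsb1, known for marking inducible nitric oxide synthase for degradation, stood at 2.57 FPKM in KO and 3.04 in WT at 3 h, and 1.47 in KO and 0.81 in WT at 0 h, and passed in WT. Of 14 other inhibitors of JAK-STAT signalling, 3 passed as higher and 2 as lower in KO, and 4 as higher and 2 as lower in WT, against the same shares over all genes. With the rescaling 5 were higher and 0 lower in each genotype, against the rescaled counts over all genes given above. Usp18, which blocks the type I interferon receptor, had the highest difference of that list, 5.59 in KO and 4.97 in WT. Sh2b3, the adaptor LNK, passed as lower in both as deposited, with -1.54 in KO and -1.45 in WT, and its call ended in both with the rescaling, at -0.95 in each. Of 10 feedback and inflammatory genes of the LPS response, 8 passed as higher in each genotype (9 with the rescaling). Over all genes 7.84% did so in KO and 7.54% in WT. Nos2, at 0.25 FPKM in KO and 0.33 in WT at 0 h, was tested only through its 3 h level. The medians of the list were 3.31 in KO and 3.29 in WT. Socs1 and Socs3 lay in the range of that list. In WT this range ran from -0.83 (Dusp1) to 8.85 (Ptgs2), and so also held Cish, Socs4, Socs5 and Socs7.

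**Figure D5:**
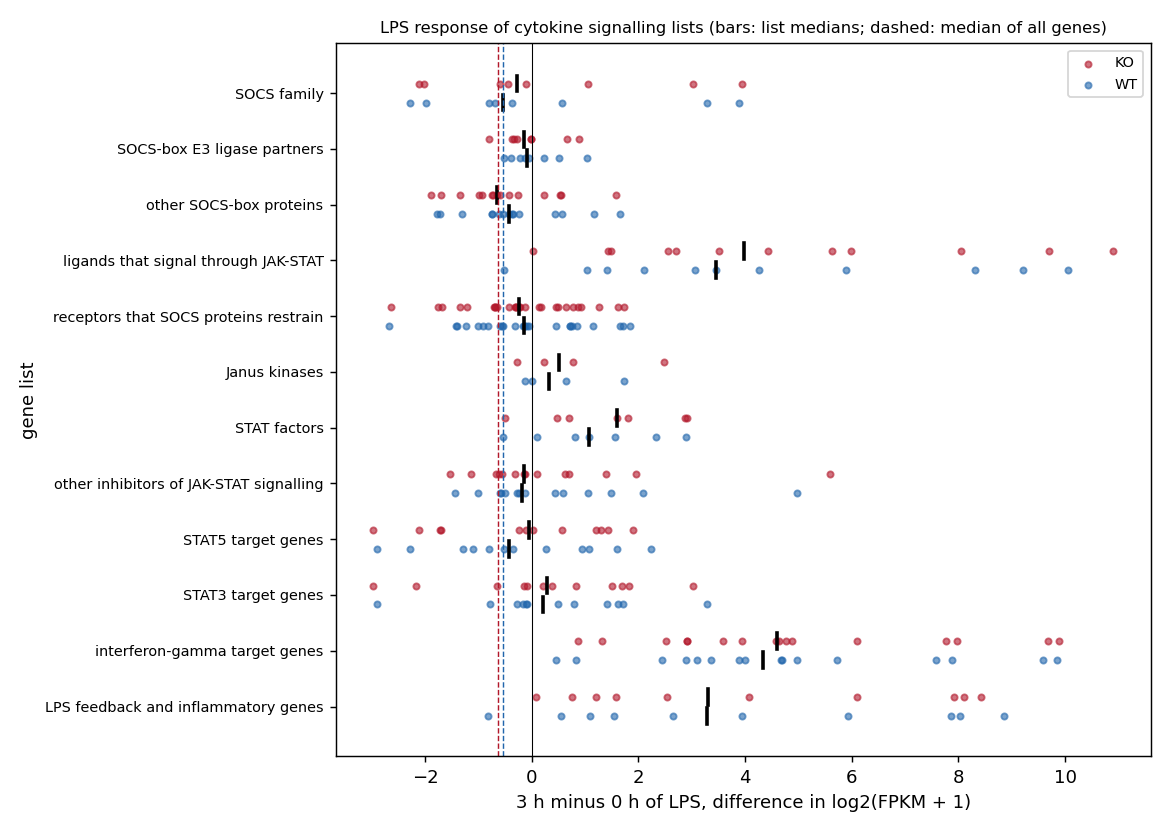
Differences in log2(FPKM + 1), 3 h minus 0 h of LPS, for the measured members of 12 lists in KO (red, upper row of each list) and WT (blue, lower row), with list medians as black bars and the median of all genes as dashed lines. The SOCS family spans from about -2 to 4 around medians of -0.28 (KO) and -0.53 (WT), whereas the interferon-gamma targets lie above 0 throughout.

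The genes whose profile over the 4 libraries was closest to that of a member were found by the Euclidean distance of log2(FPKM + 1), centred on each gene's mean, among 7998 named genes that reached an FPKM of 5 in some library. Nearest to Socs1 were Rapgef2 (distance 0.065), Tnfaip3 (0.11), which encodes the NF-kappaB inhibitor A20, and Slc7a2 (0.13), a transporter of arginine. Nearest to Socs3 were Abtb2 (0.070), Slfn1 (0.14) and Phf11d (0.15). Nearest to Socs2 were Mnt (0.066), a partner of MAX that opposes MYC, Uhrf1 (0.072), a cofactor of DNA methylation, and Inka2 (0.084). Nearest to Socs6 were Gmpr (0.050), Kif23 (0.077), a motor protein of cell division, and Man2a2 (0.081). Nearest to Socs7 were Caml (0.045), Stard5 (0.069) and Msantd3 (0.093). Tnfaip3 had 223.1 FPKM in KO and 216.9 in WT at 3 h, and 12.3 in KO and 13.2 in WT at 0 h. A short distance describes likeness of these values only, over 4 libraries.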

How the data were processed

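RNA-seq tables of 4 libraries were used. TopHat2, Bowtie, SAMtools and Cufflinks are named, per the submitters' processing notes, and no version of them is stated there. The deposited values are FPKM with lower and upper limits and a status. The build is noted as mm9, but 95.8% of entries lay inside the GRCm38.p6 gene of their name, so coordinates are given as GRCm38. Of 33841 entries, 33437 were named from the RefSeq accession, 187 through GENCODE and 101 by position (90% overlap), and 116 kept their accession. FPKM and limits of all entries of a symbol were summed. The family had 12 entries, all with status OK in the 4 libraries. The 272 genes with another status in a library were left out of its comparisons.

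Differences are of log2(FPKM + 1) as deposited. A single library in each group allows no test. The size rule is given in the text. For the difference between LPS responses it required a size of at least 1 and a propagated interval without 0. FPKM lay outside its own deposited interval in 1552 to 2076 entries per library, hence the moved intervals. Depth was estimated from 73 to 85 entries per library whose limits mark a single read. Alternatives were pseudocounts of 0.1 and 5, other filters, rescaling by the median ratio, the highest entry per symbol, a 1.5-fold rule and no interval requirement. Python 3.11.15, pandas 2.3.3 and numpy 2.4.6 were used. The members and lists were chosen with earlier results of these data known. Named genes were all members, Batf2, list members that passed or had high FPKM, and the 3 nearest profiles of each member that passed. Cul5, Elob, Ifng and Csf2 were added after their values were seen. Some list members that this rule would name are not reported here.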

Additional observations from a re-analysis of the deposited data

Results flagged for a closer look

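Cish is the member whose genotype difference had opposite signs at the 2 times with intervals apart at both. KO was above WT by 0.54 at 3 h and below it at 0 h (KO minus WT, -0.16), so that the difference between them was 0.70 on the log2(FPKM + 1) scale. With 1 library per group this difference was not tested.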

How the results depend on the processing

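No paired analysis was possible because each group holds 1 library, and for the same reason no replicate could be left out. The calls of Socs1, Socs2, Socs3 and Socs6 between 3 h and 0 h held under all 8 alternatives in both genotypes. Of 40 member comparisons, the sign turned in 5 with the rescaling, in 2 with the highest entry per symbol and in 1 with a pseudocount of 5. The highest entry of Socs1 alone, where the split of reads between 2 entries differs by library, brought 1 member past the rule for KO against WT at 0 h (2.12) and 1 for the LPS responses (-2.05), against 0 in both with summed entries. The 1.5-fold rule also brought 1 member past for the LPS responses (Cish, 0.70), and between 3 h and 0 h it added Socs5 in KO, and Socs5 and Cish in WT. Over all genes, KO against WT at 3 h had 140 calls, and 271 with a pseudocount of 0.1, 46 with 5, 88 with an FPKM of at least 5, 298 with the highest entry and 488 at 1.5-fold. At 0 h it had 184 calls, and 343, 64, 119, 326 and 512 under the same alternatives. For 3 h against 0 h, KO had 3922 calls, and 1578 with a pseudocount of 5, 2501 with the rescaling and 6930 at 1.5-fold, while WT had 3328 calls, and 1381 with a pseudocount of 5 and 6193 at 1.5-fold. The difference between LPS responses had 271 calls, and 513 with a pseudocount of 0.1, 132 with 5, 555 with the highest entry and 754 at 1.5-fold. A looser or stricter rule changes these counts by construction, and the cause of the other moves was not tested.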

Other observations

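Socs1 and Socs2 were each listed as several transcript entries at 1 locus. The entry of Socs1 with the highest mean had 134.0 FPKM in KO and 127.4 in WT at 3 h, and 3.35 in KO and 0 in WT at 0 h. The other Socs1 entry had 39.2 FPKM in KO and 40.2 in WT at 3 h, and 6.95 in KO and 10.5 in WT at 0 h. The sums of the entries are the values reported above. Of the 4 entries of Socs2, that with the highest mean had 9.74 FPKM in KO and 7.78 in WT at 3 h, and 37.4 in KO and 37.7 in WT at 0 h, and 1 was listed at 0 in all 4 libraries.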
